A study of Mus musculus with 12 samples.

Results

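The 7 genes described here are the aryl hydrocarbon receptor (Ahr), its partner Arnt, its repressor Ahrr, and the target genes Cyp1a1, Cyp1b1, Tiparp and Nqo1, out of 49315 genes counted. They were matched by symbol. The set was chosen by the level of Cyp1a1 at 6 h, which stood lower with PNU-282987 than with its solvent DMSO. The comparison of PNU with DMSO at 6 h is therefore given as a description with no test, and the same holds for differences between the times, since both 6 h groups entered the choice. The comparison at 2 h played no part in that rule and was tested, though the genes were chosen with earlier results of these data known. All 7 genes passed the filter on low counts that left 17164 genes for testing.

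Counts came from poly(A) RNA of 12 libraries in 4 groups of 3, all from passaged primary cultures labelled as wild-type mouse Müller glia, which span and support the neural retina. They were grown in transwell plates for 2 h or 6 h with cultured retinal pigment epithelium (RPE) treated with 100 nM PNU-282987 (PNU), which activates α7 nicotinic receptors, or with DMSO. The labels give the DMSO concentration both as 0.1% and as 1%, and the strain and the age in weeks of the mice are not stated there. Replicates are labelled biological, but not as separate animals or cultures, so the p-values cover no more than the spread among these libraries.

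The aryl hydrocarbon receptor is a transcription factor of the bHLH-PAS family that waits in the cytosol with HSP90 and co-chaperones. A ligand, such as a dioxin, a plant compound or a tryptophan metabolite, sends it to the nucleus, where it pairs with ARNT and binds xenobiotic response elements around the core letters GCGTG. Cyp1a1 is the classical target and encodes a cytochrome P450 that breaks down many of the ligands. Ahrr, which competes for ARNT, and Tiparp, a mono-ADP-ribosyltransferase that promotes loss of the receptor, close feedback loops. Cyp1b1 encodes a related P450 whose loss causes congenital glaucoma in people, and Nqo1 a quinone reductase that also answers to the oxidative stress factor NRF2.

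The sequences just before the transcription start show where the core letters lie close to the start of the targets and the repressor. Sequence farther from the start was not searched. The 250 bases before the start are given 5′ to 3′ on the gene's strand, from RefSeq (GRCm38.p6), with each GCGTG, or CACGC where the match lies on the other strand, in capitals:
Cyp1a1 (chr9:57697363-57697612, plus strand): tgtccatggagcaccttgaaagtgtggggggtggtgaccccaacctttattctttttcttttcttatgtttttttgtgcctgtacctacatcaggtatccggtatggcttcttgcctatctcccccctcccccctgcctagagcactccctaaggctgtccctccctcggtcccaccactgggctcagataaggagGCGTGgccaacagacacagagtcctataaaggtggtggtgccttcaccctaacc
Cyp1b1 (chr17:79715062-79715311, minus strand): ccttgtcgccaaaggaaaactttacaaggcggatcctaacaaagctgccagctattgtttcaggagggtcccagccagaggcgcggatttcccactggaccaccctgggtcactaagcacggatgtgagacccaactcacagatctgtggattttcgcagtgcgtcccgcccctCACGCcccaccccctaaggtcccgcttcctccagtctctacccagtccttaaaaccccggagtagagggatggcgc
Tiparp (chr3:65528197-65528446, plus strand): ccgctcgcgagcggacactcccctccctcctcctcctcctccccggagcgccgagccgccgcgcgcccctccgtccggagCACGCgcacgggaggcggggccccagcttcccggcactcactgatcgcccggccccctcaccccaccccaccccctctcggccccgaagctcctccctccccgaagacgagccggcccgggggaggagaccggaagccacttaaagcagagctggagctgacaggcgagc
Ahrr (chr13:74292332-74292581, minus strand): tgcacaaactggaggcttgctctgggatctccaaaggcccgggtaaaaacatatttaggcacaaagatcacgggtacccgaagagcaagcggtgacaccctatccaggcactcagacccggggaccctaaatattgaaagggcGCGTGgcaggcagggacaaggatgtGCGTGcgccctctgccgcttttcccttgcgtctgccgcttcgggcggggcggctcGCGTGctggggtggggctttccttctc
Nqo1 (chr8:107403206-107403455, minus strand): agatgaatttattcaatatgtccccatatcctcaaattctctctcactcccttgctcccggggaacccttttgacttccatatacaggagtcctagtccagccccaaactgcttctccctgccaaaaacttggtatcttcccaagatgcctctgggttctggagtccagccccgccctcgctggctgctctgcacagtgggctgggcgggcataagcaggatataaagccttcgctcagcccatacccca
Ahrr held 3 matches, beginning 107, 82 and 27 bases before the start, and 1 of them had the longer form TNGCGTG. Cyp1a1 held 1 match that began 54 bases before the start, Cyp1b1 1 on the other strand at 76, and Tiparp 1 on the other strand at 170, while Nqo1 held none. The window of Arnt, not printed here, held 1 match that began 29 bases before the start. Among 11545 tested genes with a window in the table, 44.4% held at least 1 match on either strand and 5.28% held 3 or more, and 6.58% held TNGCGTG. A single match is thus common in windows of this length, and matches are a description of these letters only. The window of Cyp1a1 lies inside the counted gene, which begins at position 57687928 of chromosome 9 and ends at 57703824.

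A few features of the libraries touch all results. Totals ran from 44332013 to 66518799 counts, so 3 counts, taken as the floor of detection, correspond to 0.0451 to 0.0677 CPM, the library-scaled count. The 3 DMSO libraries at 6 h, and PNU replicates 2 and 3 at each time, were nearly alike, with pairwise coefficients of variation of 0.0163 to 0.0223 beyond counting noise, against 0.148 to 0.384 for other pairs of a group. Their counts still differed by more than sampling noise (chi-square per degree of freedom 2.01 to 3.24), and they were kept as separate libraries. This does not show that they came from separate animals or cultures, and the p-values rest on counting them separately. With them summed, edgeR called 0 genes at either time. DMSO replicate 3 at 2 h lay nearer to the PNU mean than to the other DMSO libraries for 77.5% of tested genes, and PNU replicate 1 at 6 h nearer to the DMSO mean than to the other PNU libraries for 62.8%. The Y-linked gene Ddx3y stood at 5.00 CPM in DMSO replicate 3 at 2 h, 2.23 CPM in PNU replicate 1 at 2 h, and 7.43 and 6.74 CPM in PNU replicates 2 and 3 at 6 h, and at or under 0.141 CPM in the other 8 libraries. Defining Müller glia markers were low, with Rlbp1 at or under 0.302 CPM and Aqp4 at or under 0.218 CPM, while Glul stood at 61.5 to 94.4 CPM. Of the fibroblast markers, the collagen Col1a1 stood at 3509 to 4895 CPM, but Lum at or under 1.13 CPM and Thy1 at 0.309 to 21.9 CPM.

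At 2 h, Cyp1b1 stood lower and Ahr higher in all 3 PNU libraries than in any DMSO library, but neither passed the test over all genes. Of the 7 genes, 0 were called by edgeR's quasi-likelihood test at an adjusted p of 0.05 (Benjamini-Hochberg over all genes), where 0.291% of all tested genes were called, and 3 had an unadjusted p under 0.05, against 30.0% of all tested genes. DESeq2 called 2 of the 7, Ahr and Cyp1b1, where it called 14.2% of the genes to which it gave an adjusted p. By direction, 0.21% of all tested genes were called higher and 0.0816% lower. Groups that did not overlap were found for 1 of 7 members higher and 1 of 7 lower, against 9.06% and 13.6% of all tested genes (22.7% together). In RNA from whole cultures, fewer cells of a type and less RNA per cell cannot be told apart.

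The receptor itself was a moderately expressed transcript. Ahr (ENSMUSG00000019256, GRCm38 chromosome 12, 35497974 to 35535038, minus strand) stood at 8.97, 10.7 and 18.3 CPM in DMSO replicates 1, 2 and 3 at 2 h and at 22.0, 19.6 and 19.2 CPM in PNU replicates 1, 2 and 3. The groups did not overlap, but DMSO replicate 3 lay just under the PNU libraries. The log2 difference was 0.71 ± 0.21 (SE, 3 libraries a group), with an adjusted p of 0.0769 in edgeR. At 6 h Ahr stood at 13.4, 14.2 and 14.3 CPM with DMSO and at 12.3, 11.7 and 10.7 CPM with PNU. Here every PNU library lay under every DMSO library, the opposite order to that at 2 h, with a log2 difference of -0.26 ± 0.21. No overlap at either time with this change of order, higher at 2 h and lower at 6 h, was seen for 1.03% of tested genes. The log2 difference of 6 h minus 2 h was -0.87 ± 0.21 with PNU and 0.10 ± 0.21 with DMSO.

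Arnt, the partner that the receptor shares with the hypoxia factors HIF1α and EPAS1, varied least of the 7. Arnt (ENSMUSG00000015522, chromosome 3, 95434388 to 95497240, plus strand) stood at 63.2, 73.9 and 46.2 CPM with DMSO and at 47.2, 47.8 and 47.0 CPM with PNU at 2 h. DMSO replicate 3 lay below the PNU libraries and the other DMSO libraries above them, so the groups overlapped. The log2 difference was -0.33 ± 0.14 (edgeR adjusted p = 0.141). At 6 h the DMSO libraries held 65.7, 66.0 and 67.2 CPM and the PNU libraries 67.5, 54.5 and 55.4 CPM, with replicate 1 of PNU above all DMSO libraries (log2 difference -0.15 ± 0.14). Over the 12 libraries its highest value was 1.60 times its lowest, against 2.46 for Ahr and for Nqo1, 3.00 for Tiparp, 5.55 for Cyp1b1, 7.42 for Ahrr and 26.8 for Cyp1a1.

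Ahrr, the repressor with 3 core motifs in its window, was close to the limit of what these depths resolve. Ahrr (ENSMUSG00000021575, chromosome 13, 74211118 to 74292331, minus strand) had 16, 13 and 50 counts with DMSO at 2 h, or 0.270, 0.251 and 0.782 CPM. With PNU at 2 h it had 18, 14 and 18 counts, or 0.398, 0.305 and 0.271 CPM. DMSO replicate 3 alone stood above the rest, its 95% counting interval (exact Poisson, counting error only) of 0.580 to 1.03 CPM lying above the PNU point values. The log2 difference of -0.41 ± 0.48 (edgeR adjusted p = 0.571) became 0.33 ± 0.41 without that library (adjusted p = 0.540), so no direction can be given at 2 h. At 6 h Ahrr stood at 0.654, 0.699 and 0.687 CPM with DMSO and at 0.105, 0.342 and 0.219 CPM with PNU. All 3 PNU libraries lay below all 3 DMSO libraries, with a log2 difference of -1.58 ± 0.48, or -1.26 without PNU replicate 1.

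Cyp1a1 was scarce in every library and lowest after 6 h with PNU, the value that chose this set of genes. Cyp1a1 (ENSMUSG00000032315, chromosome 9, plus strand) stood at 1.42, 1.15 and 1.66 CPM with DMSO at 6 h and at 0.545, 0.187 and 0.110 CPM with PNU, from 31, 12 and 7 counts. PNU replicate 1, which lay nearer to DMSO for most genes, was low here too. The log2 difference was -2.33 ± 0.48, moving to -3.22 without PNU replicate 1 and to -1.94 without PNU replicate 3. At 2 h Cyp1a1 stood at 1.27, 1.37 and 2.41 CPM with DMSO and at 2.94, 2.15 and 1.98 CPM with PNU. DMSO replicate 3 lay among the PNU libraries, and the log2 difference of 0.52 ± 0.42 did not pass (edgeR adjusted p = 0.411). Within PNU, the log2 difference of Cyp1a1 at 6 h minus 2 h was -3.14 ± 0.48, and it was -4.03 without PNU replicate 1 at 6 h and -2.75 without PNU replicate 3 at 6 h. Between the DMSO groups the difference was -0.30 ± 0.43.

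**Figure D1:**
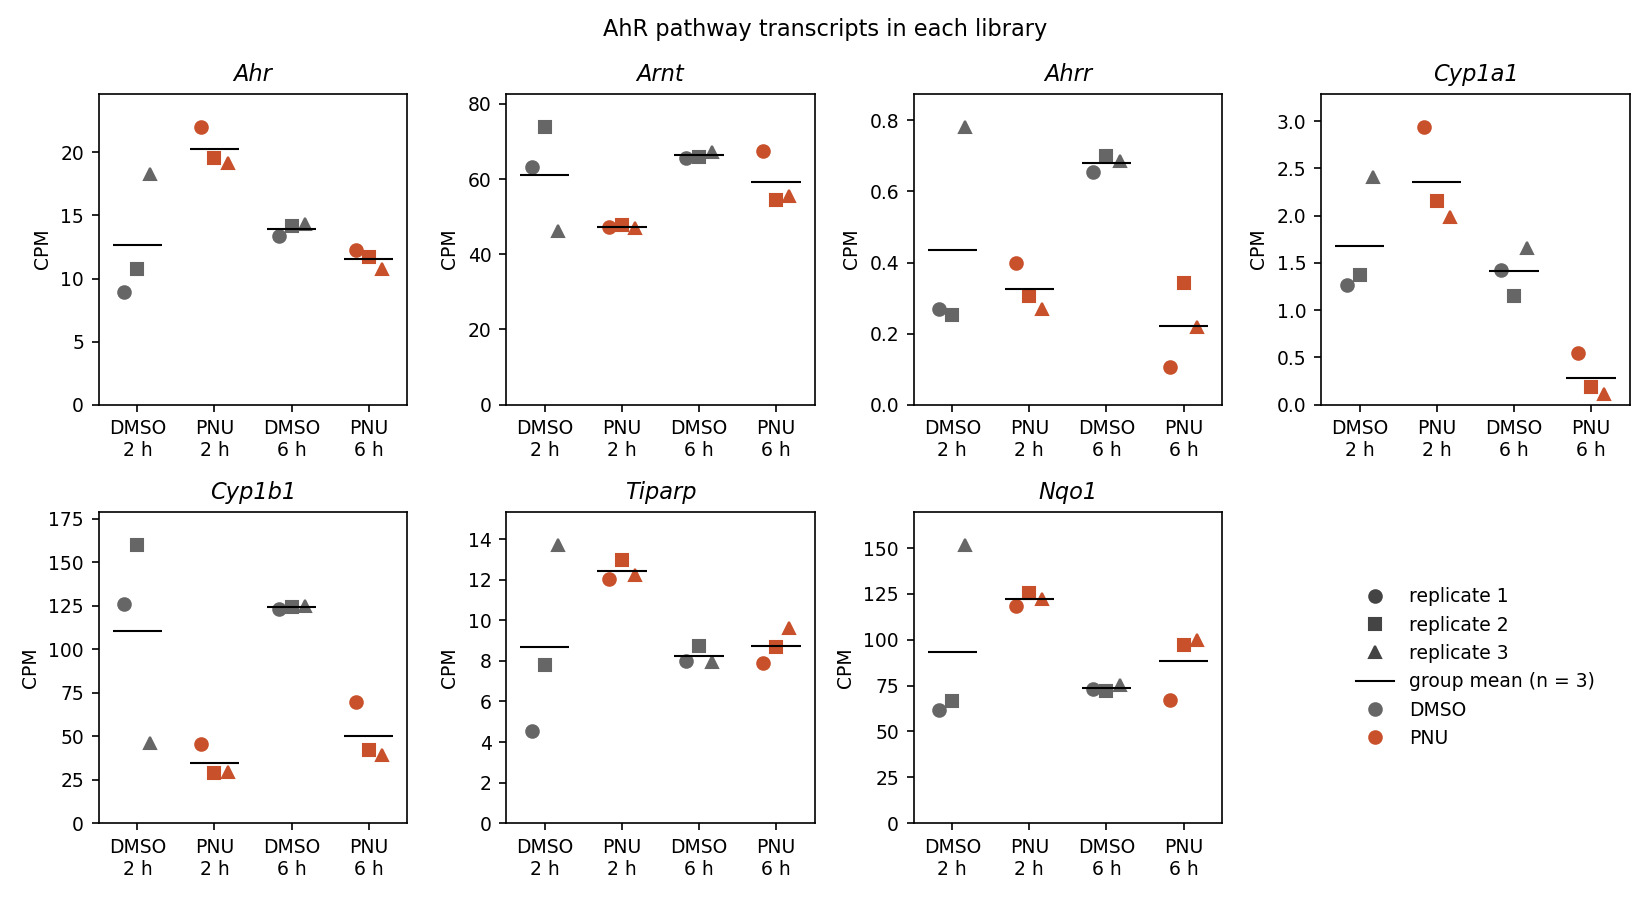
Level of each of the 7 transcripts in CPM (linear axes from 0) in the 3 libraries of each group, with black lines for the group means. DMSO replicate 3 at 2 h (grey triangle) sits near the PNU libraries for most genes, at 18.3 CPM for Ahr and 46.1 CPM for Cyp1b1, and Cyp1a1 is lowest in the PNU libraries at 6 h, at 0.110 to 0.545 CPM.

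Cyp1b1, the related P450, was more abundant than Cyp1a1 in every library. Cyp1b1 (ENSMUSG00000024087, chromosome 17, 79706953 to 79715041, minus strand) stood at 126, 160 and 46.1 CPM with DMSO at 2 h and at 45.8, 28.7 and 29.4 CPM with PNU. The groups did not overlap, although DMSO replicate 3 and PNU replicate 1 nearly met. The log2 difference was -1.63 ± 0.39, the largest in size of the 7 at 2 h (edgeR adjusted p = 0.0636, lower in 3 of 3 PNU libraries). DESeq2 gave an adjusted p of 0.000638 for the same difference. At 6 h Cyp1b1 stood at 123, 124 and 125 CPM with DMSO and at 69.7, 41.8 and 39.0 CPM with PNU, again without overlap and with a log2 difference of -1.29 ± 0.39. The DMSO and PNU libraries at 2 h with Ddx3y above 1 CPM, DMSO replicate 3 and PNU replicate 1, held nearly the same level of Cyp1b1, 46.1 and 45.8 CPM. Among the libraries at 2 h without it, Cyp1b1 stood at 126 and 160 CPM with DMSO and at 28.7 and 29.4 CPM with PNU. At 6 h the DMSO libraries, all with Ddx3y under 1 CPM, held 123 to 125 CPM of Cyp1b1. PNU replicate 1 at 6 h, also with Ddx3y under 1 CPM, held 69.7 CPM. PNU replicates 2 and 3 at 6 h, with Ddx3y above 1 CPM, held 41.8 and 39.0 CPM. The part of Ddx3y-positive cultures in the difference was not tested.

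The ratio of the 2 P450 transcripts, corrected for transcript length and formed after the values were seen, is given here as a description. At 2 h Cyp1b1 exceeded Cyp1a1 by 53.9, 63.3 and 10.4 times with DMSO and by 8.46, 7.25 and 8.05 times with PNU. At 6 h it did so by 47.0, 58.5 and 41.0 times with DMSO and by 69.6, 122 and 193 times with PNU. Each PNU library lay below all DMSO libraries at 2 h. The ratios at 6 h divide by the Cyp1a1 levels that chose the genes, from 7 to 31 counts with PNU, and so largely restate that choice. At 2 h the mean of Cyp1a1 was higher and that of Cyp1b1 lower with PNU, while at 6 h both were lower, Cyp1a1 by more. Their windows before the start each held 1 match to the letters GCGTG, on opposite strands, and binding of the receptor there was not tested.

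**Figure D2:**
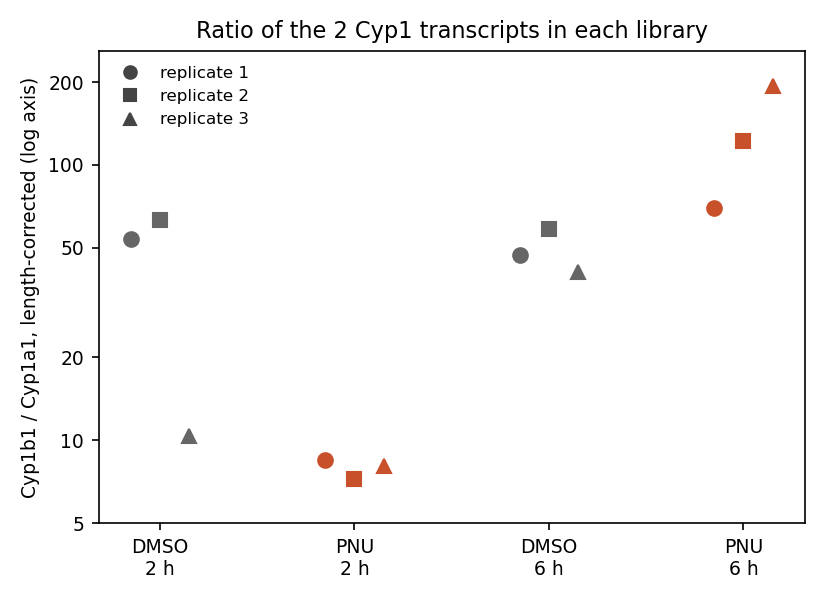
Ratio of Cyp1b1 to Cyp1a1 counts per base of transcript (log axis) in each library, grey for DMSO and orange for PNU. The PNU libraries lie at 7.25 to 8.46 at 2 h and at 69.6 to 193 at 6 h, and DMSO replicate 3 at 2 h, at 10.4, lies apart from the other DMSO libraries.

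Tiparp, the feedback enzyme, and Nqo1, the quinone reductase, varied alike. Tiparp (ENSMUSG00000034640, chromosome 3, 65528410 to 65555518, plus strand) stood at 4.56, 7.80 and 13.7 CPM with DMSO at 2 h and at 12.0, 13.0 and 12.2 CPM with PNU. DMSO replicate 3 exceeded every PNU library, and the log2 difference of 0.55 ± 0.28 did not pass (edgeR adjusted p = 0.206). At 6 h the DMSO libraries held 8.01, 8.71 and 7.96 CPM and the PNU libraries 7.90, 8.67 and 9.62 CPM, which overlapped (log2 difference 0.10 ± 0.28). A gene on the opposite strand, 4931440P22Rik, overlaps Tiparp and reached at most 1.49 CPM, and the sources used here do not say whether counting used the strand. Arnt overlaps Gm42672 on the same strand, which reached at most 0.211 CPM.

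Nqo1 had the highest level per length of the 7 and no core motif in its window. Nqo1 (ENSMUSG00000003849, chromosome 8, 107388225 to 107403206, minus strand) stood at 61.7, 66.6 and 151 CPM with DMSO at 2 h and at 119, 126 and 122 CPM with PNU. As for Tiparp, the highest library was DMSO replicate 3, and the log2 difference was 0.42 ± 0.29 (edgeR adjusted p = 0.322). At 6 h Nqo1 stood at 73.3, 72.1 and 75.5 CPM with DMSO and at 67.4, 97.3 and 99.8 CPM with PNU, where replicate 1 lay below the DMSO libraries and the other two above (log2 difference 0.27 ± 0.29).

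Among single libraries left out, DMSO replicate 3 at 2 h changed the number of edgeR calls at 2 h the most. DMSO replicate 3 lay nearer to the PNU mean than to the other DMSO libraries for all 7 genes. Without it, Ahr (1.08 ± 0.10, edgeR adjusted p = 2.27e-05), Tiparp (1.06 ± 0.17, 0.000502) and Nqo1 (0.97 ± 0.13, 0.000197) were called higher with PNU. Cyp1b1 (-2.00 ± 0.27, 0.000445) and Arnt (-0.49 ± 0.09, 0.00121) were called lower. Cyp1a1 (0.87 ± 0.42, 0.111) and Ahrr were not. These 5 of 7 stand beside 43.8% of all genes called without that library, 20.9% higher and 22.9% lower. DMSO replicate 3 was left out because its values lay near those with PNU. The p-values without it follow in part from that choice and are no independent support. Without PNU replicate 1 at 6 h as well, Cyp1a1 was also called higher (0.87 ± 0.23, edgeR adjusted p = 0.00778), so that 6 of 7 stand beside 52.2% of all genes, 25.2% higher and 27.0% lower. With the near-identical libraries summed and counted once, 0 of the 7 passed and the log2 differences were 0.75 for Ahr (adjusted p = 0.550) and -1.51 for Cyp1b1 (adjusted p = 0.550). Some sums of cell type markers also differed between the groups. The 6 pericyte and smooth muscle markers summed to 4062 to 4415 CPM with PNU against 3153 to 3862 CPM with DMSO at 2 h, with 5 of 6 above a median of 1 CPM in both groups. The pericyte marker Rgs5 was the exception, at or under 0.404 CPM in every library. The 8 Müller glia markers summed to 295 to 371 and 170 to 256 CPM, with 3 and 5 of 8 above a median of 1 CPM and Aqp4 and Kcnj10 at a median over the 12 libraries under the floor of detection. Among these, Sox9, a glial transcription factor, stood at 292, 214 and 230 CPM with PNU, and at 89.6, 86.3 and 184 CPM with DMSO. Glul overlapped, at 66.8 to 69.3 and 61.5 to 67.3 CPM, and Slc1a3 had the lower mean with PNU, at 1.15, 0.435 and 0.421 against 2.06, 2.82 and 0.813 CPM. The 6 fibroblast markers overlapped, at 11470 to 12580 CPM with PNU against 11810 to 14270 CPM with DMSO. The part of these markers in the differences at 2 h was not tested.

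**Figure D3:**
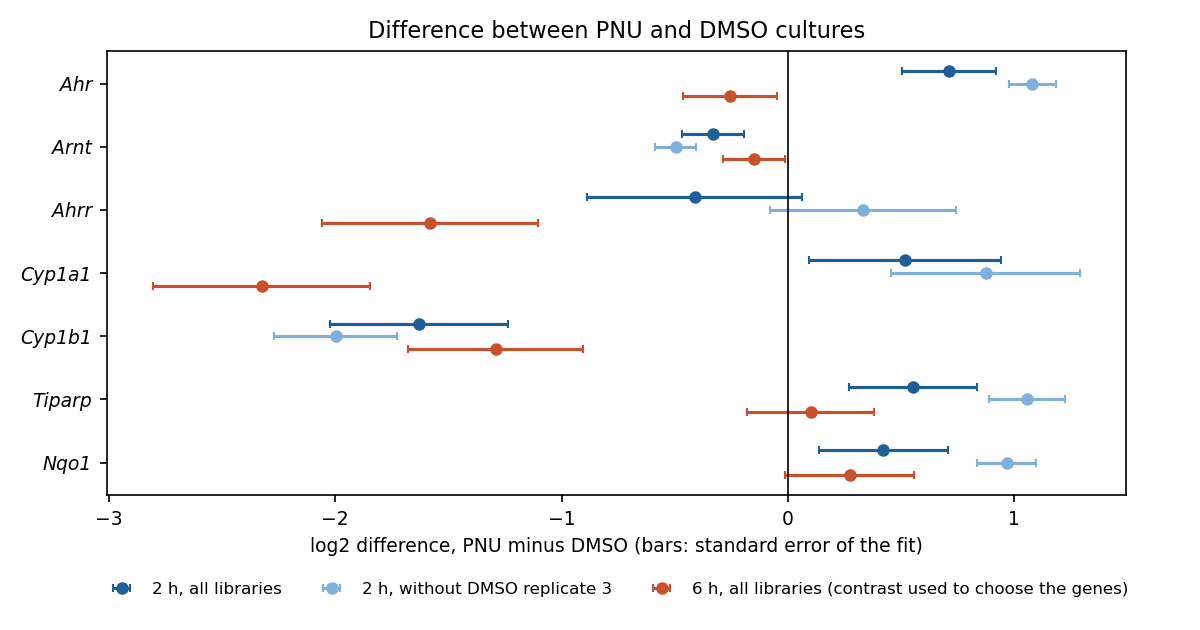
Log2 difference of PNU minus DMSO for each transcript at 2 h with all libraries, at 2 h without DMSO replicate 3, and at 6 h, with the standard error of the fit as bars. Cyp1b1 lies below 0 in all 3, at -1.63, -2.00 and -1.29, while Ahrr changes side at 2 h from -0.41 to 0.33 and the 6 h values are a description of the contrast that chose the genes.

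At 6 h, 4 of the 7 genes, Ahr, Ahrr, Cyp1a1 and Cyp1b1, had all PNU libraries below all DMSO libraries, and 0 had them above. Among all tested genes the shares were 20.8% and 14.1% (34.9% together), and at 6 h edgeR called 1.05% and DESeq2 4.53%. The 6 h contrast chose the genes, so nothing is read from these counts. The members' median log2 difference was -0.26, against -0.00 for all tested genes, and at 2 h it was 0.42 against -0.01. PNU replicate 1 lay nearer to the DMSO mean for 3 of the 7, Arnt, Tiparp and Nqo1. At this time too some marker sums differed: the 6 pericyte and smooth muscle markers summed to 3874 to 3930 CPM with PNU against 3224 to 3293 CPM with DMSO, with 5 of 6 above a median of 1 CPM in both. The 5 leukocyte and microglia markers summed to 7.46 to 11.2 and 1.99 to 2.94 CPM, with 1 of 5, Csf1r, above a median of 1 CPM and the defining marker Ptprc at or under 0.235 CPM. The 6 fibroblast markers summed higher with PNU, at 12390 to 13530 against 12160 to 12190 CPM. That sum is mostly Col1a1 and Col1a2, with medians over the 12 libraries of 3979 and 8448 CPM. The fibroblast marker Dcn went the other way, at 15.8, 29.1 and 28.5 CPM with PNU against 52.1, 54.6 and 54.5 CPM with DMSO. The 5 endothelium markers also summed higher with PNU, at 2.27 to 2.775 against 1.25 to 1.85 CPM, with 1 and 0 of 5 above a median of 1 CPM. Their defining markers Pecam1 and Cdh5 reached at most 0.351 and 0.373 CPM in any library. The 6 RPE markers summed lower, at 2.34 to 3.34 against 3.925 to 4.25 CPM. The 8 Müller glia markers overlapped, at 154 to 174 and 159 to 162 CPM. The part of these markers in the 6 h values was not tested, and PNU and a difference between cultures cannot be told apart there, since Ddx3y was above 1 CPM only in PNU replicates 2 and 3.

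Compared per length, the order of levels over the 12 libraries ran from Nqo1 to Ahrr. The median was 55.6 RPKM (CPM per kilobase of transcript) for Nqo1, 11.3 for Cyp1b1, 7.41 for Arnt, 2.24 for Ahr, 2.00 for Tiparp, 0.501 for Cyp1a1 and 0.0347 for Ahrr. The range of Nqo1 (39.7 to 97.5 RPKM) lay wholly above that of Cyp1b1 (5.61 to 31.1 RPKM), and that of Arnt (5.76 to 9.23 RPKM) wholly above that of Ahr (1.46 to 3.57 RPKM). Cyp1b1 and Arnt overlapped, as did Ahr and Tiparp (1.05 to 3.14 RPKM) and, at their edges, Tiparp and Cyp1a1 (0.0394 to 1.05 RPKM). Ahrr (0.0113 to 0.0839 RPKM) overlapped only the lowest libraries of Cyp1a1.

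Correlations over the 12 libraries describe how alike the patterns of the members were. These correlations of scaled log2 CPM (with a prior of 0.5) share the same libraries and group structure and are descriptions. Those of Cyp1a1 rest in part on the 6 h values that chose the genes, so no grouping is read from them. Nqo1 correlated with Tiparp at r = 0.91 and with Arnt at r = -0.98, Ahr with Tiparp at 0.86 and with Cyp1a1 at 0.72, and Cyp1b1 with Arnt at 0.89. Cyp1a1 and Cyp1b1 correlated at 0.03. Among genes with a mean of at least 1 CPM, Cyp1a1 was most like Eps8 (r = 0.98), a regulator of actin, Asns (0.98), the asparagine synthetase, and Clic5 (0.97). Cyp1b1 was most like Ebf1, Hsd17b11 and Sept11 (all r = 0.99). Nqo1 was most like Psmd6, a proteasome subunit, Gsr, the glutathione reductase, and Idh3a, a subunit of mitochondrial isocitrate dehydrogenase (all r = 0.99). Ahr was most like Cacna1c, a calcium channel subunit, Btg1 and Coa7 (each r = 0.98), and Arnt most like Parn, Pros1 and Col8a1 (0.99, 0.99 and 0.98). Tiparp was most like Alg13, Dnttip2 and Frs2 (0.99, 0.99 and 0.98), and Ahrr most like Fgf10 (0.87), Ndufs4 (0.85) and Sept6 (0.83).

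The other genes of the pathway were read from 5 lists, and edgeR called 0 of their 47 tested members at 2 h, beside 0.291% of all tested genes. At an unadjusted p under 0.05 there were 19 of 47, beside 30.0% of all tested genes. Without DMSO replicate 3 the calls at 2 h were 17 higher and 12 lower of 49 tested, beside 20.9% and 22.9% of all genes. Values of the lists at 6 h are given with no test, as for the members. In the receptor complex and coactivator list all 10 genes were tested, with 6 positive and 4 negative differences at 2 h and a median of 0.11. Hsp90ab1, the constitutive HSP90 that holds the receptor, stood at 2045 ± 83.4 CPM with PNU against 1953 ± 74.8 CPM with DMSO (SD, n = 3), and Hsp90aa1, the inducible form, at 423 ± 17.4 and 399 ± 103 CPM. Ptges3, the co-chaperone p23, stood at 164 ± 8.53 and 133 ± 38.9 CPM.

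The relatives of the receptor that carry bHLH-PAS domains held 8 tested genes of 10, with a median of 0.07 at 2 h. Hif1a, the hypoxia factor that competes for ARNT, stood at 98.5 ± 18.3 CPM with PNU against 90.1 ± 18.9 CPM with DMSO. Epas1, or HIF2α, stood at 30.7, 16.6 and 17.8 CPM with PNU, and at 51.4, 50.8 and 22.9 CPM with DMSO, where replicate 3 lay among the PNU libraries (log2 difference -0.91 ± 0.36, edgeR adjusted p = 0.129). Arnt2, the close relative of Arnt found in neural tissue, stood at 41.3 ± 3.36 and 38.7 ± 2.58 CPM. Arntl, the clock factor BMAL1, stood at 26.8 ± 2.04 and 21.7 ± 2.35 CPM with no overlap (0.34 ± 0.10, adjusted p = 0.0775).

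Among 15 other genes known as targets of the receptor, 12 were tested, with 6 positive and 6 negative differences at 2 h and a median of 0.05. Cyp1a2, the liver P450 of the family, reached no more than 2 counts in any library. Slc7a5, the amino acid transporter that brings tryptophan and kynurenine into cells, stood at 260, 241 and 248 CPM with PNU, and at 127, 113 and 199 CPM with DMSO at 2 h (log2 difference 0.80 ± 0.17, edgeR adjusted p = 0.0583). At 6 h it stood at 95.7, 89.4 and 90.8 CPM with PNU, and at 109, 114 and 113 CPM with DMSO, the opposite order, as for Ahr. Bax, an activator of apoptosis, stood at 221 ± 22.4 and 235 ± 14.7 CPM at 2 h. Xdh, the xanthine dehydrogenase, stood at 122, 71.2 and 72.4 CPM with PNU and 154, 151 and 97.9 CPM with DMSO. Nfe2l2, which encodes NRF2, stood at 97.4 ± 13.5 and 90.0 ± 13.1 CPM.

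Genes of the kynurenine route, which makes ligands from tryptophan, were scarce. Of 10 genes 5 passed the filter, all with negative differences at 2 h (median -0.62, beside -0.01 for all tested genes). The groups overlapped for all 5, and the difference of Afmid was only -0.01 ± 0.14 (SE). The enzymes that open the route, Ido1, Ido2 and Tdo2, reached at most 0.0677, 0.264 and 0.180 CPM in any library. Kyat1, a kynurenine aminotransferase, stood at 2.84 ± 0.480 CPM with PNU against 4.48 ± 1.73 CPM with DMSO at 2 h, and Afmid, the formamidase, at 4.12 ± 0.236 and 4.26 ± 0.222 CPM. Aadat, another aminotransferase, stood at 0.144 ± 0.0807 and 0.264 ± 0.151 CPM, and Haao, which did not pass the filter, at 0.150 ± 0.0611 and 0.0953 ± 0.0546 CPM.

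The list of NRF2 targets and regulators, the route that also drives Nqo1, had all 12 genes tested, with 9 positive and 3 negative differences at 2 h and a median of 0.45 beside -0.01 for all tested genes. Hmox1, the heme oxygenase, stood at 1485, 1300 and 1256 CPM with PNU, and at 465, 422 and 1353 CPM with DMSO (log2 difference 0.88 ± 0.37, edgeR adjusted p = 0.139). Txnrd1, the thioredoxin reductase, stood at 654, 613 and 617 CPM with PNU, and at 166, 181 and 646 CPM with DMSO (0.96 ± 0.44, adjusted p = 0.172). In both genes DMSO replicate 3 lay among the PNU libraries and far above the other DMSO libraries; for Nqo1 it lay above both. Gstm1, a glutathione transferase, went the other way, with 66.6, 70.2 and 63.6 CPM with PNU and 263, 230 and 67.3 CPM with DMSO, so that replicate 3 again lay with PNU (-1.45 ± 0.46, adjusted p = 0.0862). G6pdx, the first enzyme of the pentose phosphate pathway, stood at 207 ± 25.3 CPM with PNU against 269 ± 36.2 CPM with DMSO. At 6 h the list median was 0.22, with 8 positive and 4 negative differences.

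**Figure D4:**
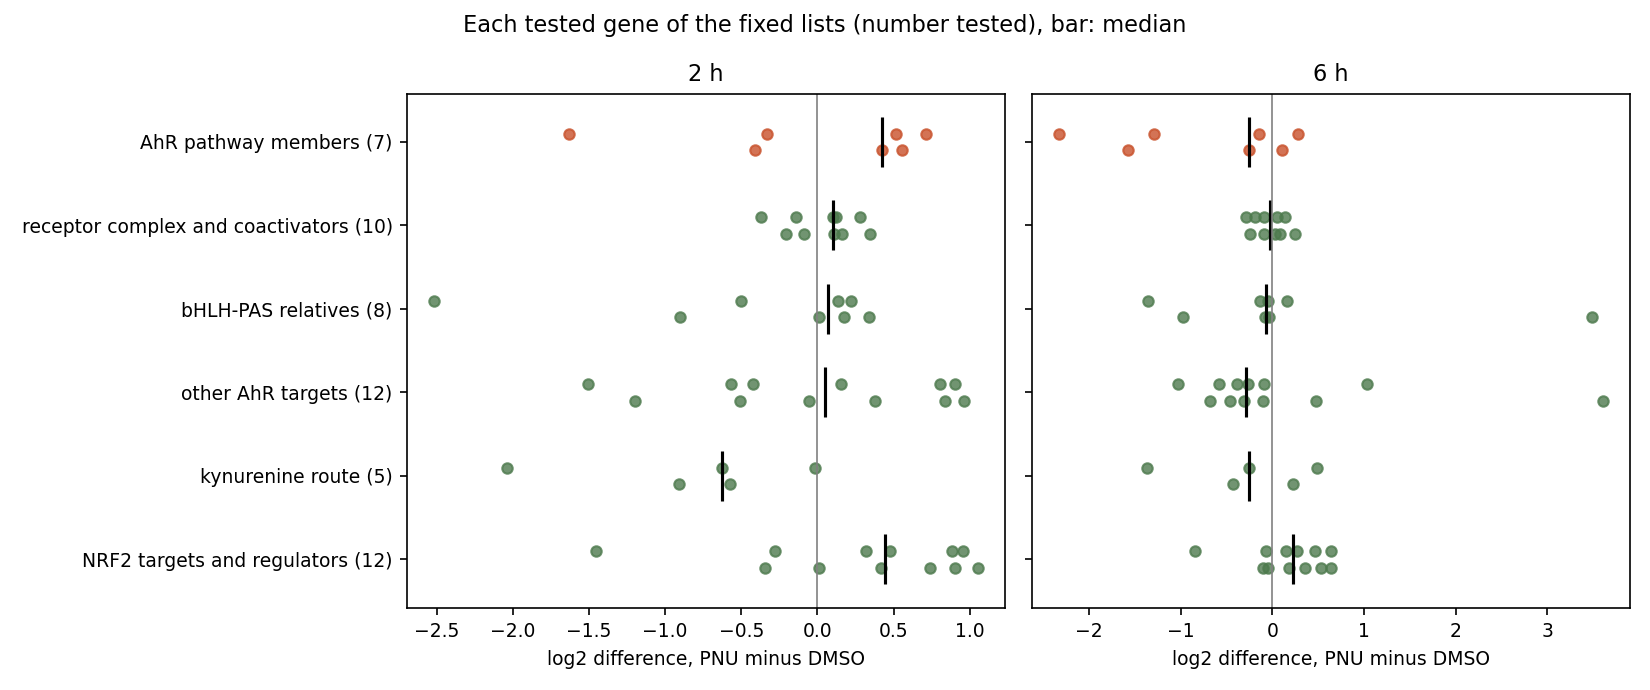
Log2 difference of PNU minus DMSO for every tested gene of the 7 members and of the 5 lists at 2 h (left) and 6 h (right), with black bars for the medians and different ranges on the x axes. The NRF2 list has medians of 0.45 at 2 h and 0.22 at 6 h, and the members 0.42 and -0.26.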

How the data were processed

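Poly(A) RNA was sequenced as paired reads of 150 bp, and, per the labels' protocols, the authors trimmed with fastp 0.23.2, aligned to GRCm38 with STAR 2.5.2b and used featureCounts (Subread 1.5.2) for gene counts. DESeq2 appears, with no role, in the submitters' processing notes. The deposited values are raw counts per gene, 1 table a library, with no normalization. Strand setting, multi-mapping and annotation release are not given in the sources used here. Symbols came from GENCODE M21 (48970 of 49315 genes) and start-site windows from RefSeq, which held 6 of the 7 members.

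Counts were fitted in edgeR 4.0.16 (R 4.3.3): filterByExpr, TMM scaling, 1 robust quasi-likelihood model of 4 group means over 12 libraries (common biological coefficient of variation 0.198), Benjamini-Hochberg over 17164 genes, threshold 0.05. The SE is the log2 difference over the root of F. CPM uses library totals, and RPKM adds the gene lengths of the deposited tables. The pipeline was tested on simulated counts. Alternatives were 2 other scalings, DESeq2 1.42.0, no filter, libraries of 1 time alone, the replicate number as a block, near-identical libraries summed, and libraries left out.

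The members, lists and rule for named genes were chosen with earlier results of these data known. The rule names all members, listed genes that passed at 2 h, up to 4 of highest level per list, and 3 genes of most similar pattern per member. Other genes were named after their values were seen. One listed gene that the rule names is not reported here.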

Additional observations from a re-analysis of the deposited data

Results flagged for a closer look

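Ahr stood higher in all 3 PNU libraries at 2 h (log2 difference 0.71 ± 0.21, SE) and lower in all 3 at 6 h (-0.26 ± 0.21), so the order of the groups was opposite. Slc7a5, the amino acid transporter, did the same, with 0.80 ± 0.17 at 2 h and -0.27 ± 0.17 at 6 h. The difference between the times was not tested for either gene, since the 6 h comparison entered the choice of genes. The order seen in these genes, higher at 2 h and lower at 6 h with no overlap, was found in 1.03% of tested genes, and the reverse order in 0.804%.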

How the results depend on the processing

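The number of genes called at 2 h, 50 with all libraries, was 2361 with DESeq2, 140 without the filter, 311 with the replicate block and 9080 without DMSO replicate 3 at 2 h and PNU replicate 1 at 6 h. EdgeR called 0 with near-identical libraries summed (1487 at an unadjusted p under 0.05) and 0 from the 2 h libraries alone (2926). At 6 h, 181 became 863 with DESeq2, 1646 from the 6 h libraries alone, 296 with the block, 4981 without both libraries and 0 in edgeR with libraries summed (267 at an unadjusted p under 0.05). Leaving out 1 library gave 0 to 7724 genes at 2 h and 22 to 1606 at 6 h. Same-numbered PNU and DMSO libraries deviated together by correlations of only -0.05 to 0.04, and 3 of 6 correlated best with their own number, so the numbers were not taken as pairs. Under the block Cyp1b1 at 2 h had an adjusted p of 0.0481.

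Differences at 2 h kept their sign under all alternatives except for Ahrr, which became 0.33 without DMSO replicate 3 and 0.33 without both libraries, with -0.70 to 0.33 over single libraries left out. Adjusted p-values at 2 h over these alternatives ran from 2.45e-06 to 0.550 for Ahr, 6.74e-06 to 0.550 for Cyp1b1 and 0.00778 to 0.684 for Cyp1a1. Cyp1b1 was also called without PNU replicate 1 at 6 h (0.0494). The differences of 6 h minus 2 h in DMSO rested on the DMSO libraries at 2 h. Leaving out 1 library gave -0.079 to 0.471 for Ahr, -0.082 to 0.208 for Arnt, -0.447 to 0.062 for Cyp1a1, -0.23 to 0.45 for Cyp1b1, -0.41 to 0.39 for Tiparp and -0.59 to 0.16 for Nqo1. The end of changed sign came without DMSO replicate 3 at 2 h, except for Ahr, where it came without replicate 1 (and -0.02 without replicate 2). Without both libraries the values were -0.079 for Arnt, 0.065 for Cyp1a1, -0.23 for Cyp1b1, 0.39 for Tiparp and 0.17 for Nqo1. The cause was not tested. All 6 h differences of PNU minus DMSO kept their sign under every alternative run, those for Cyp1a1 between -3.22 and -1.94. In the gene lists, calls at 2 h ran from 0 to 11 of 12 NRF2 genes and from 0 to 10 of 12 other targets. These highest counts came without both libraries, where 52.2% of all tested genes were called. Depth limits Ahrr, with 6 to 50 counts, and Cyp1a1 at 6 h with PNU, with 7 to 31 counts.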

Other observations

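Several listed genes outside the naming rule showed large differences without passing the test, and were picked after their values were seen. Ugt1a6b, a glucuronosyltransferase and target of the receptor, stood at 3.23, 2.96 and 2.92 CPM with PNU and at 8.94, 9.29 and 3.21 CPM with DMSO at 2 h, and at 5.45, 3.51 and 3.57 against 8.01, 8.94 and 8.98 CPM at 6 h. Its neighbour Ugt1a6a shares sequence with it, so the split of reads between them is uncertain. The group means of both were lower with PNU at 2 h and at 6 h, as for Cyp1b1. Serpinb2, an inhibitor of plasminogen activators, stood at 8.53, 11.3 and 9.40 CPM with PNU and at 0.524, 0.907 and 15.2 CPM with DMSO at 2 h. At 6 h it stood at 1.88, 17.6 and 16.3 CPM with PNU and at 0.992, 0.907 and 1.06 CPM with DMSO. Its high libraries were thus those high in Nqo1, DMSO replicate 3 at 2 h among them. Sim2, a bHLH-PAS repressor, stood at 0.0527, 1.73 and 1.29 CPM with PNU and at 0.0677, 0.0945 and 0.106 CPM with DMSO at 6 h, with PNU replicate 1 below all DMSO libraries. At 2 h it lay the other way, at 0 to 0.0663 CPM with PNU and 0.141 to 0.290 CPM with DMSO.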
